A study of Mus musculus with 6 samples.

Results

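The miRNAs described here are the mature arms of miR-192, miR-194 and miR-215, chosen by name as the rows of the read-count table that begin with these 3 names. The table held 4 such rows, mmu-miR-192-5p, mmu-miR-194-5p, mmu-miR-194-2-3p and mmu-miR-215-5p, out of 810 miRNA rows. RefSeq lists 7 mature arms for the 4 hairpins of this group, and the other 3, mmu-miR-192-3p, mmu-miR-194-1-3p and mmu-miR-215-3p, are not analysed here. The libraries hold small RNA of small extracellular vesicles (sEV, the membrane particles that cells release into the medium) of cochlear explants, the cultured sensory epithelium of the inner ear. The explants came from ICR mice of both sexes at postnatal day 3, with the spiral ganglion removed, and each sample pooled the vesicles of about 80 explants. Explants of the Cis-sEV group (3 libraries) were given 50 µM cisplatin for 48 h, and those of the Ctrl-sEV group (3 libraries) PBS in the same volume and for as long. Both groups were grown in the same medium with fetal bovine serum that had been cleared of its own vesicles.

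miRNAs are short RNAs that guide Argonaute proteins to messenger RNAs, mainly through the seed, bases 2 to 8 from the 5′ end. The hairpins of miR-192, miR-194 and miR-215 lie in pairs, so that 1 transcript can give rise to miR-192 or miR-215 together with miR-194. All 3 are known as miRNAs of gut, liver and kidney epithelium, and they have been reported to be induced by p53, the transcription factor that responds to DNA damage. Cisplatin forms DNA adducts and is a known activator of p53, and the design asks how the miRNA content of cochlear sEV differs after this drug.

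The mature sequences are shown because the seed decides which of these miRNAs can recognise the same targets. The letters are those of the table, are identical to RefSeq (GRCm38.p6), and the seed is in capitals.
mmu-miR-192-5p: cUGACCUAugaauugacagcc
mmu-miR-215-5p: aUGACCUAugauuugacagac
mmu-miR-194-5p: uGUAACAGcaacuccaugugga
mmu-miR-194-2-3p: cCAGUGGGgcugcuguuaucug

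mmu-miR-192-5p and mmu-miR-215-5p share the seed UGACCUA, which no other row of the table carries, and would pair with the same target match, UAGGUCA. Over 21 bases they are identical at 18 and differ by C1A, A12U and C20A, with positions counted from 1 at the 5′ end, the base of mmu-miR-192-5p first and that of mmu-miR-215-5p last. Reads of such near-identical arms can be split between them by the aligner, so the low count of mmu-miR-215-5p is uncertain. mmu-miR-194-5p has the seed GUAACAG and mmu-miR-194-2-3p the seed CAGUGGG, and each is the only row with its seed.

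The pair of Mir194-2 (chr19:6264643-6264728) and Mir192 (chr19:6264844-6264932) lies on the plus strand of chromosome 19 of GRCm38, 115 bases apart and between genes. The nearest neighbours in GENCODE M21 are Atg2a, which ends 2307 bases before Mir194-2, and the long noncoding RNA Gm14963, which begins 3862 bases after Mir192. The other pair, Mir194-1 (chr1:185313319-185313385) and Mir215 (chr1:185313581-185313692), lies 195 bases apart on the plus strand of chromosome 1. Both hairpins are inside an intron of Iars2, a mitochondrial isoleucyl-tRNA synthetase gene of the opposite strand, and inside the antisense transcript 2010103J01Rik, where Mir215 overlaps an exon and Mir194-1 does not. The hairpins of miR-194 are shown, with the arms that have a row in capitals, because they encode an identical 5p arm.
Mir194-1: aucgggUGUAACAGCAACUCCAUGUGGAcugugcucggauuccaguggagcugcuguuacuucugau
Mir194-2: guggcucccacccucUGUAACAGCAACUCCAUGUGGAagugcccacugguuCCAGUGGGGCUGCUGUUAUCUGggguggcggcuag

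Reads of mmu-miR-194-5p therefore cannot be assigned to chromosome 1 or chromosome 19. The 3p arms of these hairpins differ, by G8A, U19C, C20U and G22C (mmu-miR-194-2-3p first, positions from 1 at the 5′ end), so that mmu-miR-194-2-3p comes from chromosome 19 alone.

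Depth ranged from 1722359 to 1794175 miRNA reads per Cis-sEV library but only from 528952 to 718597 per Ctrl-sEV library. Levels are counts per 1e6 miRNA reads (CPM), further scaled by the TMM factors of edgeR, which correct for a few abundant miRNAs taking up a larger share of some libraries. The limit that 0 reads allow, taken as 3 reads in a library, was 1.42 to 1.59 scaled CPM for the treated and 4.20 to 7.31 for the control libraries, and covers counting error only. The tested miRNAs, those that passed a filter on low counts, numbered 353. Their median SD of log2(CPM + 1) was 0.31 within Cis-sEV against 0.83 within Ctrl-sEV, so the controls were the more variable group. The number of vesicles and the amount of a miRNA per vesicle cannot be told apart in these counts.

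The main result was that the abundant 5p arms, mmu-miR-192-5p and mmu-miR-194-5p, were on average higher in Cis-sEV but neither passed the test. mmu-miR-192-5p was 1.97-fold and mmu-miR-194-5p 1.84-fold higher by edgeR's quasi-likelihood test. Of the 2 tested members 0 were called higher, against 23.5% of all 353 tested miRNAs, and 0 were called lower, against 6.52%. To be called, a miRNA needed an adjusted p (Benjamini-Hochberg) no higher than 0.05 together with a change of 1 or more on the log2 scale. At an unadjusted p under 0.05 the number of these was also 0, against 41.6% of the tested miRNAs. DESeq2 and limma-voom called 0 of the miR-192, miR-194 and miR-215 arms, against 16.9% and 8.50% of their tested miRNAs called higher.

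mmu-miR-192-5p had 734, 654 and 767 reads in Cis-sEV replicates 1, 2 and 3, and 81, 230 and 13 in those of Ctrl-sEV. In scaled CPM this was 369, 347 and 363 in Cis-sEV against 197, 322 and 26.9 in Ctrl-sEV. Every Cis-sEV library was above every Ctrl-sEV library, a pattern shown by 37.7% of the tested miRNAs, and the highest control, replicate 2, came close to the lowest Cis-sEV library. The group means were 360 ± 11.7 (SD, n = 3) and 182 ± 148 (SD, n = 3) scaled CPM. The log2 fold change was 0.98 (standard error, SE, 0.85, 95% interval -1.03 to 2.99, adjusted p = 0.494 from edgeR). Among the controls the highest level was 12.0 times the lowest, and among the Cis-sEV libraries 1.07 times. On the log2 scale its SD in Cis-sEV, 0.05, was smaller than that of all but 2.55% of the tested miRNAs, whereas in Ctrl-sEV it was 1.87, a value that 61.5% of the tested miRNAs were below.

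mmu-miR-194-5p had 303, 197 and 272 reads in Cis-sEV and 5, 2 and 94 in Ctrl-sEV. The scaled CPM were 153, 104 and 129 in Cis-sEV and 12.2, 2.80 and 194.4 in Ctrl-sEV. Its SD on the log2 scale was 2.91 in Ctrl-sEV, with 65.7% of the tested miRNAs below it. The groups overlapped, since control replicate 3 was above all 3 Cis-sEV libraries while control replicates 1 and 2 were far below them. The group means were 129 ± 24.0 (SD, n = 3) and 69.8 ± 108 (SD, n = 3) scaled CPM, and the log2 fold change was 0.88 (SE 1.52, 95% interval -2.72 to 4.49, adjusted p = 0.752 from edgeR). Without Ctrl-sEV replicate 3 the log2 fold change was 4.29 (SE 0.89, adjusted p = 0.0217 from edgeR) and mmu-miR-194-5p was called higher, in a fit that called 32.7% of 441 miRNAs higher. With any other library left out it was 0.27 to 0.998 and was not called. One control library thus decides this value. limma-voom, which averages log values rather than counts, gave a log2 fold change of 2.33 (SE 1.25, adjusted p = 0.271).

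**Figure D1:**
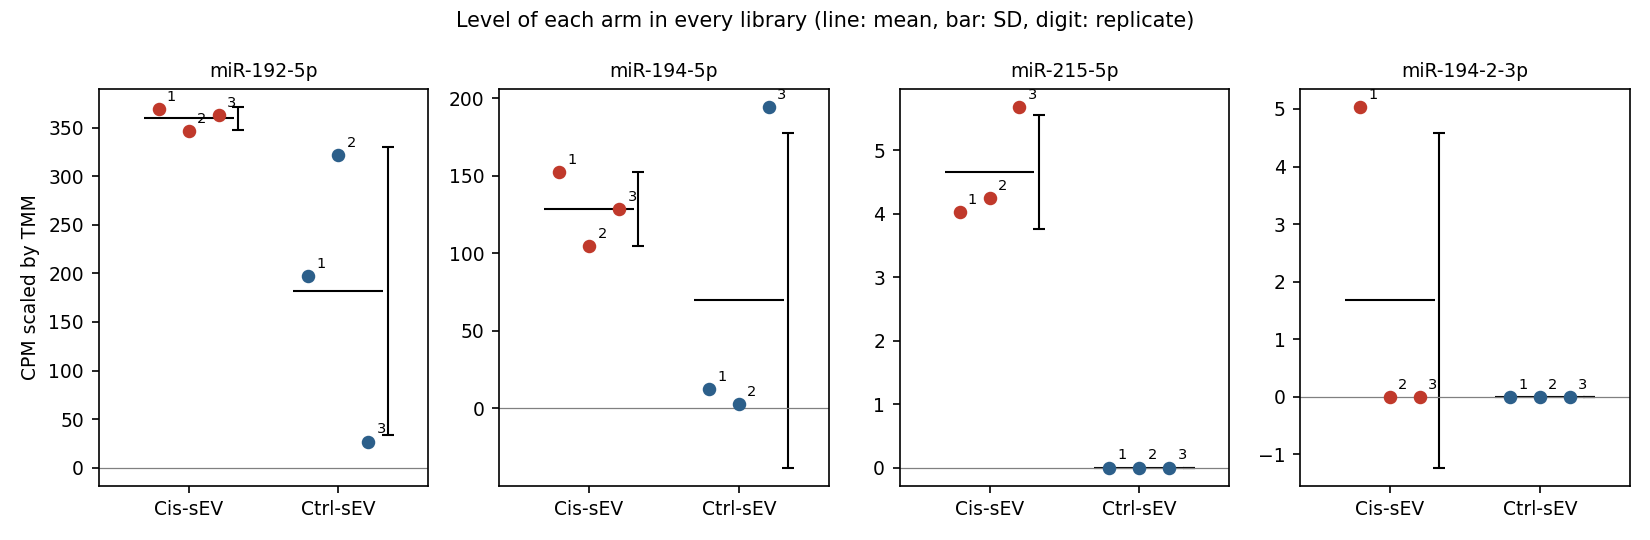
CPM scaled by TMM (y axis, its own range in each panel) of the 4 arms in the 3 Cis-sEV (red) and 3 Ctrl-sEV (blue) libraries, with digits for replicates, lines for means and bars for SD. Control replicate 3 is the lowest library for miR-192-5p, at 26.9, and the highest for miR-194-5p, at 194.4.

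The rare arms were read only in Cis-sEV, as were 50.6% of the 810 rows. mmu-miR-215-5p, which shares its seed with mmu-miR-192-5p, had 8, 8 and 12 reads in the treated libraries, a mean of 4.65 ± 0.90 scaled CPM (SD, n = 3), and 0 in each Ctrl-sEV library. Reads in every Cis-sEV and no Ctrl-sEV library were found for 12.3% of the rows. With 3 reads over the Ctrl-sEV group in place of 0, it was at least 2.51-fold higher in Cis-sEV. Without Ctrl-sEV replicate 2, the deepest control, this bound was 1.39-fold, because the 3 reads then stand over fewer reads. Its Cis-sEV levels, 4.03 to 5.68 scaled CPM, lie within or below the limits that 0 reads allow in single control libraries, so a difference was not detectable at this depth library by library. It had too few reads for the filter, and with no filter it was not called (unadjusted p = 0.0488 and adjusted p = 0.195 from edgeR), in a fit where 25.2% of 810 miRNAs had an unadjusted p under 0.05 and 7.65% were called higher. mmu-miR-194-2-3p, the passenger arm from chromosome 19, had 10 reads in Cis-sEV replicate 1 and 0 in the other 5 libraries, which allows no statement on a difference.

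Summed over the 4 arms, the group took 0.0589, 0.0499 and 0.0586% of all miRNA reads in Cis-sEV, against 0.0159, 0.0323 and 0.0202% in Ctrl-sEV. The 95% Wilson intervals spanned 0.0466 to 0.0626% for Cis-sEV and 0.0129 to 0.0367% for Ctrl-sEV, and cover counting error only. Within each group the intervals of replicates 1 and 3 overlapped. That of replicate 2 lay apart from them, below in Cis-sEV and above in Ctrl-sEV. The mean share was 0.0558 ± 0.0051% (SD, n = 3) against 0.0228 ± 0.0085% (SD, n = 3), and the groups did not overlap. In scaled CPM, every Cis-sEV library was above every Ctrl-sEV library for 37.7% of the tested miRNAs. The TMM factors were 1.10 to 1.18 for Cis-sEV and 0.762 to 0.997 for Ctrl-sEV. In unscaled CPM, the measure of the share, that percentage is therefore the same or larger. The share is not scaled by TMM, and with total miRNA reads the median log2 fold change of all tested miRNAs was 0.79. By mean CPM, mmu-miR-192-5p held rank 112 of 810 in Cis-sEV (131 in Ctrl-sEV) and mmu-miR-194-5p rank 161 (190). In Cis-sEV the order mmu-miR-192-5p, mmu-miR-194-5p, mmu-miR-215-5p was the same in all 3 libraries, with gaps wider than the spread. In Ctrl-sEV the first of these did not separate from the second beyond their spread.

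How the summed reads divided among the arms was even in Cis-sEV and uneven in Ctrl-sEV. mmu-miR-192-5p made up 69.6, 76.1 and 73.0% of the member reads in the Cis-sEV libraries, but 94.2, 99.1 and 12.1% in the Ctrl-sEV libraries. mmu-miR-194-5p made up 28.7, 22.9 and 25.9% in Cis-sEV, and 5.81, 0.862 and 87.9% in Ctrl-sEV. For each read of mmu-miR-194-5p there were 2.42, 3.32 and 2.82 reads of mmu-miR-192-5p in Cis-sEV and 16.2, 115 and 0.138 in Ctrl-sEV. In control replicates 1 and 2 this ratio rests on 5 and 2 reads of mmu-miR-194-5p. Its level in control replicate 2, 2.80 scaled CPM, is below the limit that 0 reads allow there, 4.20. Control replicates 1 and 2 lay above the Cis-sEV range and control replicate 3 below it.

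**Figure D2:**
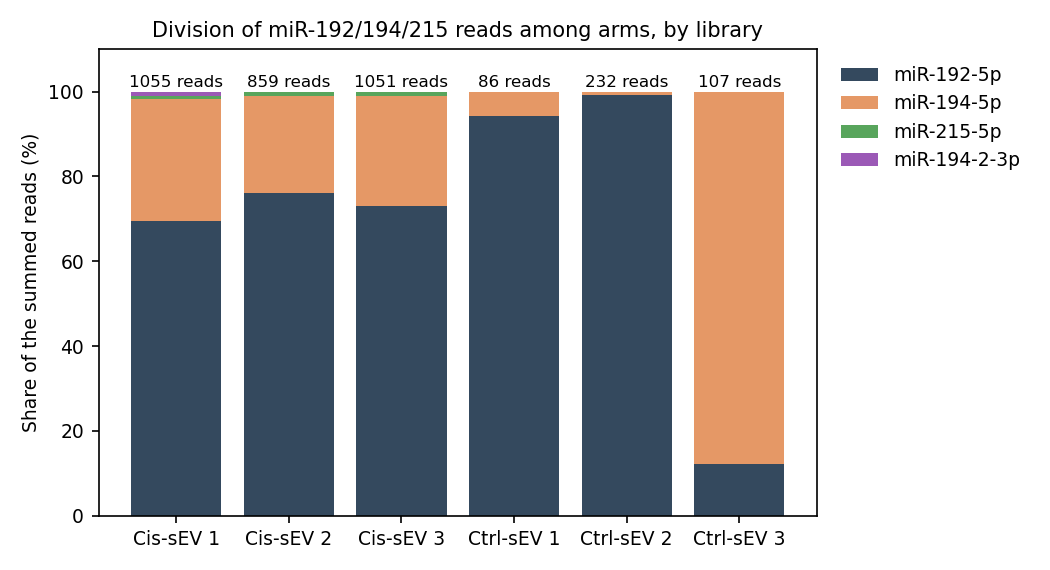
Share of the summed reads of the 4 arms (y axis, %) on each arm in the 6 libraries, with the number of reads above each bar. miR-192-5p holds 69.6 to 76.1% in the Cis-sEV libraries, more than 94% in control replicates 1 and 2, and 12.1% in control replicate 3.

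A ratio within a library does not depend on how libraries are scaled, and 5 ratios were compared between the groups by a two-sided exact permutation test, for which 3 libraries against 3 allow no p below 0.1. The mean log2 ratio of mmu-miR-192-5p to mmu-miR-194-5p, with 0.5 added to each count, was 1.499 ± 0.23 for Cis-sEV against 2.54 ± 4.81 for Ctrl-sEV (SD, n = 3 each, exact permutation p = 0.7). For mmu-miR-192-5p to mmu-miR-34a-5p, the best known p53-induced miRNA, it was -4.68 ± 0.17 in Cis-sEV and -3.82 ± 2.25 in Ctrl-sEV (exact permutation p = 0.7), and for mmu-miR-194-5p to mmu-miR-34a-5p it was -6.18 ± 0.40 and -6.36 ± 2.59 (exact permutation p = 1). All 5 ratios had an adjusted p (Benjamini-Hochberg) of 1 in the exact permutation test. Leaving out Ctrl-sEV replicate 2 turned the direction of each of the 5 differences, leaving out Ctrl-sEV replicate 1 turned those of mmu-miR-194-5p to mmu-miR-215-5p and to mmu-miR-34a-5p, and leaving out Cis-sEV replicate 1 turned the last of these. The 2 ratios to mmu-miR-215-5p rest, in Ctrl-sEV, on the number added to its 0 reads.

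The 5p arms also stood in the middle of the tested miRNAs. The log2 fold change of mmu-miR-192-5p was larger than that of 62.3% of the 353 and that of mmu-miR-194-5p larger than that of 59.2%, and the median of all was 0.44. Relative to that median they were higher by 0.54 and 0.44. With total miRNA reads in place of TMM, the median was 0.79 and these differences were 0.50 and 0.40. Under limma-voom, where the median was 1.42, mmu-miR-192-5p lay 0.03 below it (log2 fold change 1.39) and mmu-miR-194-5p 0.91 above it. With DESeq2 both lay below the median, at -0.54 and -0.67 relative to it. That median, 1.45, was taken over all 810 rows and not over the 353, so these differences are not on the same footing. With the scaling of DESeq2 in the edgeR fit of the 353, both lay above the median, by 0.54 and 0.41. Without Ctrl-sEV replicate 3 mmu-miR-192-5p was at -0.50 relative to the median and mmu-miR-194-5p at 3.25. Without Ctrl-sEV replicate 1 or 2 mmu-miR-194-5p was at -0.56 or -0.58. Neither arm kept 1 side of the median over all of these alternatives. The fits without Ctrl-sEV replicate 1, 2 or 3 tested 439, 442 and 441 miRNAs, so their medians are not on the same footing either. In the fits of the same 353 given here, mmu-miR-194-5p stayed above the median. mmu-miR-192-5p lay above it in the edgeR fits of the 353 given here and 0.03 below it under limma-voom.

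**Figure D3:**
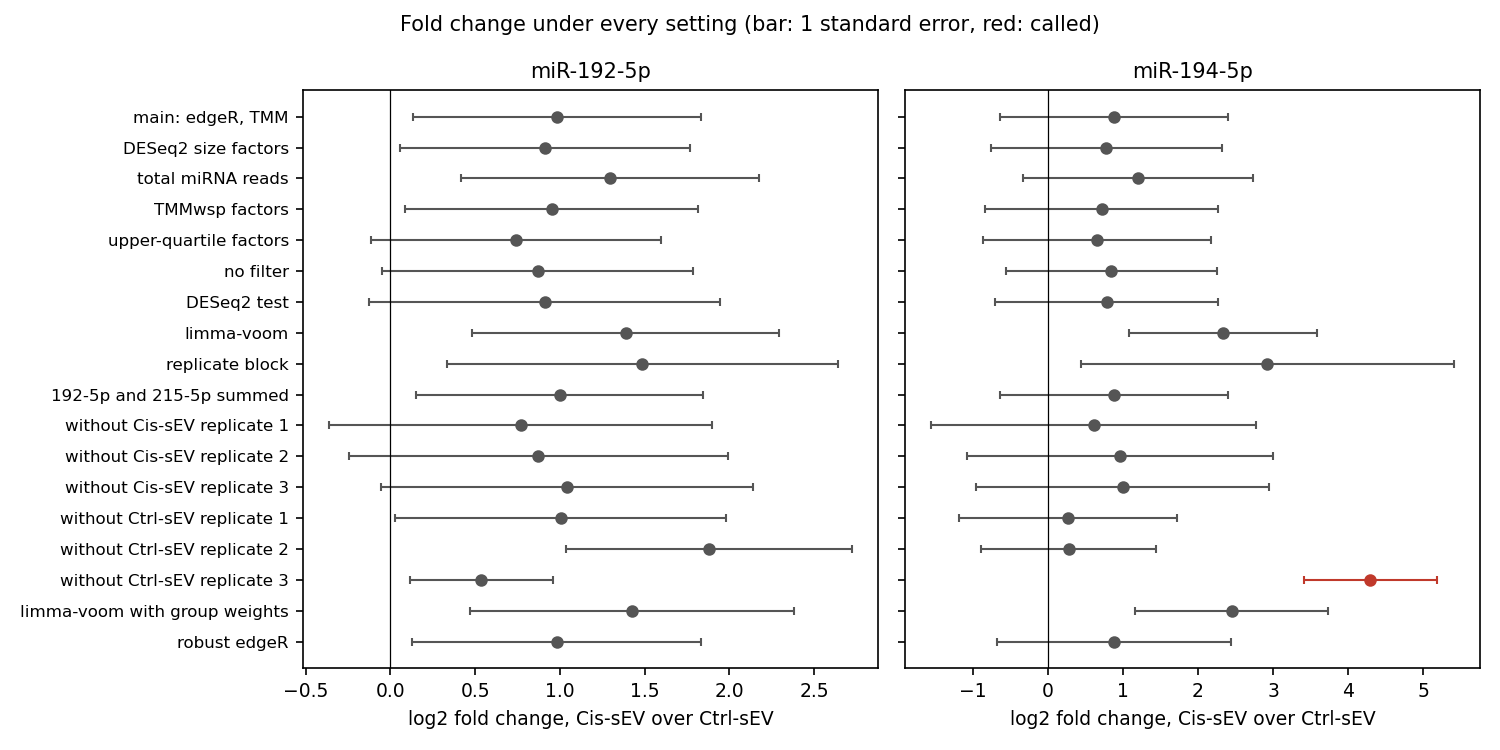
log2 fold change of miR-192-5p and miR-194-5p, Cis-sEV over Ctrl-sEV (x axis), under the 18 settings (y axis), with bars of 1 SE and called values in red. miR-192-5p stays between 0.54 and 1.88 and is never called, and miR-194-5p is called once, at 4.29, without control replicate 3.

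Other miRNAs reported to be raised by p53, in their transcription or processing, give the setting for these values. Of a list of 21 arms, 15 had a row and 9 were tested, of which 2 were called higher, beside 23.5% of all tested miRNAs, and 0 lower. The median log2 fold change of the 9 was 0.77, beside 0.44 for all tested. It was 2.499 under limma-voom, beside 1.42 for all, and without Ctrl-sEV replicate 3, where 12 arms were tested, it was 2.81, beside 1.04. With no filter, over the 15 arms with a row, it was 1.76 and lay below the 2.68 of all rows. With DESeq2, over the same 15 arms, it was 1.61 beside 1.45. Without Ctrl-sEV replicate 1 it was 0.90 beside 0.83. mmu-miR-34a-5p, which targets cell cycle and survival genes, had 16605, 18817 and 19883 reads in Cis-sEV and 918, 778 and 1007 in the controls. It was higher by 2.36 on the log2 scale (SE 0.29, adjusted p = 0.00502 from edgeR), and unlike the miR-192 and miR-194 arms it varied only 2.06-fold among the controls. mmu-miR-34c-3p had 299, 156 and 300 reads against 0 in each control, at least 67.6-fold higher with 3 reads over the group in place of 0, with an adjusted p of 0.0168 from edgeR. The bound was 37.6-fold without Ctrl-sEV replicate 2. It was not called when 1 Cis-sEV library, whichever it was, was left out (adjusted p = 0.0739 to 0.0899).

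The other listed arms with a mean of at least 100 scaled CPM were not called by edgeR. mmu-miR-143-3p, a miRNA of smooth muscle and fibroblasts, passed the adjusted p but not the fold limit, with a log2 fold change of 0.77 (SE 0.17, adjusted p = 0.0141). mmu-miR-141-3p, an epithelial miRNA of the miR-200 family, had 1959, 1554 and 1850 reads in Cis-sEV and 1, 155 and 116 in the controls, with a log2 difference of 2.54 (SE 1.18, adjusted p = 0.157). It was therefore also uneven among the controls, with control replicate 1 as the low library. The log2 fold changes of mmu-miR-34b-3p, mmu-miR-200c-3p and mmu-miR-22-3p were 0.39 (SE 0.47), 0.28 (SE 0.28) and 0.30 (SE 0.14). With 1 control library left out, other listed arms were called higher beside mmu-miR-34a-5p and mmu-miR-34c-3p: mmu-miR-34c-5p in each of the 3 fits, mmu-miR-141-3p without replicate 1, mmu-miR-141-5p without replicate 2, and mmu-miR-145a-5p and mmu-miR-145a-3p without replicate 3. The number called was thus 4, 4 and 5 of 12 tested, in fits that called 23.7, 22.4 and 32.7% of all miRNAs higher. These names were taken up after their values were seen. mmu-miR-34c-5p had 19, 12 and 19 reads in Cis-sEV and 0 in each control, as 12.3% of the 810 rows had reads in every Cis-sEV and no Ctrl-sEV library. With all libraries kept it had too few reads for the filter. It was then not called by edgeR with no filter (adjusted p = 0.0739) or by DESeq2 (adjusted p = 0.0707). With all libraries kept, mmu-miR-141-5p was at -0.92 (SE 2.08) and not called, with control reads of 0, 97 and 0. mmu-miR-145a-3p was at -2.20 (SE 1.97) with no filter and not called, with control reads of 0, 0 and 43. mmu-miR-145a-5p was at 1.72 (SE 1.91, adjusted p = 0.618 from edgeR), with control reads of 1, 0 and 64. The calls of mmu-miR-141-5p, mmu-miR-145a-3p and mmu-miR-145a-5p thus came without the control library that held all or most of their control reads. With a Cis-sEV library left out, mmu-miR-34a-5p was the 1 listed arm called of 9 tested, beside 11.7, 12.9 and 17.2% of all miRNAs. With total miRNA reads in place of TMM, mmu-miR-143-3p was called too, beside 27.5% of all.

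**Figure D4:**
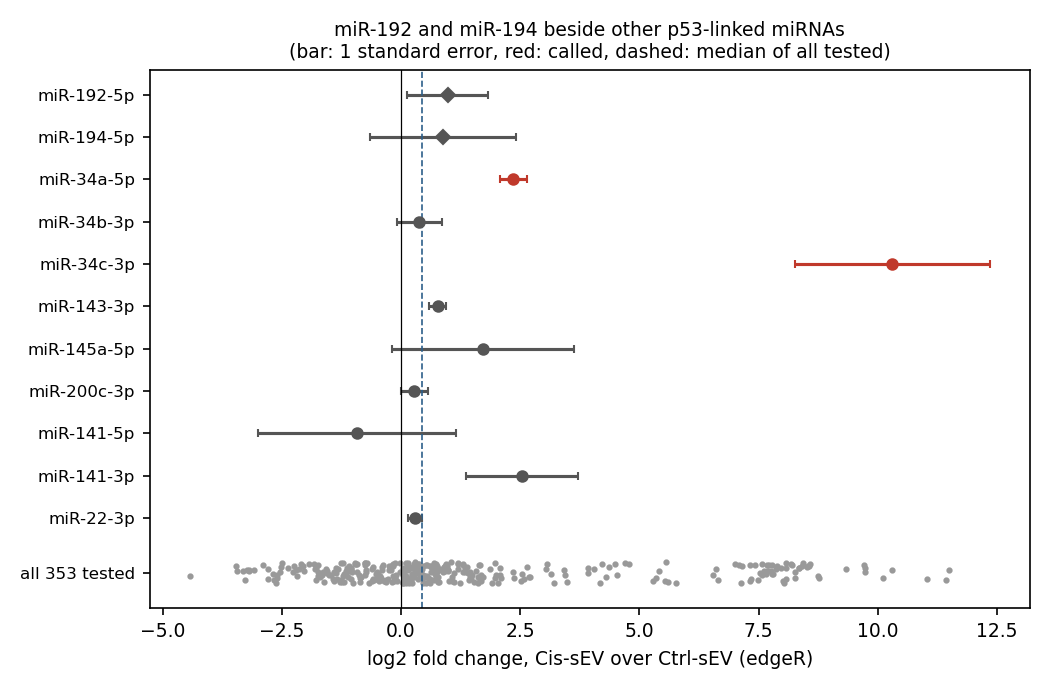
log2 fold change by edgeR (x axis) of miR-192-5p and miR-194-5p (diamonds) and of the 9 tested arms of the p53-linked list (circles), with bars of 1 SE, called values in red and all 353 tested miRNAs as grey points below. miR-34a-5p lies at 2.36 with a short bar, while the bars of miR-192-5p and miR-194-5p are wide, and the value of miR-34c-3p rests on a control group with 0 reads.

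The miRNAs with the most similar pattern over the 6 libraries were found from the root mean square difference between log2(CPM + 1) profiles, each scaled by TMM and centred on its own mean. For mmu-miR-192-5p they were mmu-miR-19b-3p (difference 0.47), mmu-miR-103-3p (0.61) and mmu-miR-1839-5p (0.88). mmu-miR-19b-3p had 208, 247 and 218 reads in Cis-sEV and 50, 108 and 8 in Ctrl-sEV, with control replicate 3 lowest as for mmu-miR-192-5p. For mmu-miR-194-5p they were mmu-miR-29c-5p (0.49), mmu-miR-185-5p (0.65) and mmu-miR-744-3p (0.73). In Ctrl-sEV mmu-miR-29c-5p had 3, 0 and 36 reads and mmu-miR-744-3p 0, 0 and 31. Their likeness in control replicates 1 and 2 is therefore one of values at or near 0 reads. mmu-miR-185-5p had 249, 133 and 348 reads in Cis-sEV and 3, 1 and 203 in Ctrl-sEV, with control replicate 3 highest as for mmu-miR-194-5p. mmu-miR-192-5p and mmu-miR-194-5p, which can come from 1 transcript, differed from each other by 2.80 on this scale, more than either differed from mmu-miR-34a-5p (1.37 and 1.49). The value of 2.80 rests in part on the 5 and 2 reads of mmu-miR-194-5p in control replicates 1 and 2. How it stands among other pairs of tested miRNAs is not given here. Over all 353 tested miRNAs, Ctrl-sEV replicate 3 was the highest control for 34.8% and the lowest for 18.4%.

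**Figure D5:**
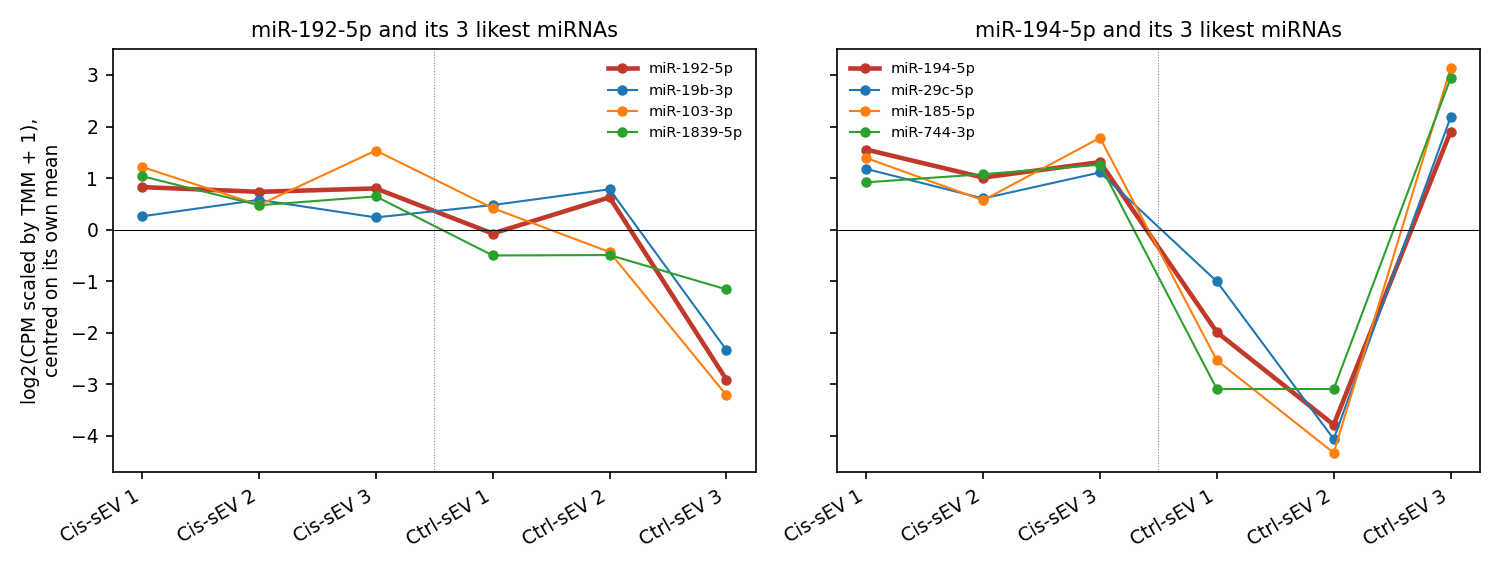
log2(CPM + 1), scaled by TMM and centred on the mean of each miRNA (y axis), in the 6 libraries (x axis) for miR-192-5p and miR-194-5p (red) and the 3 miRNAs most like each. Lines only join the points of 1 miRNA, and control replicate 3 is low in the left panel and high in the right panel.

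Since miR-192, miR-194 and miR-215 are miRNAs of gut, liver and kidney, markers of these and other tissues were read in the same libraries. mmu-miR-122-5p, the hepatocyte miRNA, had 2186, 1698 and 2603 reads in Cis-sEV and 3669, 4749 and 3231 in Ctrl-sEV, and was called lower (log2 fold change -2.78, SE 0.21, adjusted p = 0.0011 from edgeR). Both arms of the hepatocyte list, mmu-miR-122-5p and the rare mmu-miR-122-3p, had a row, and their sum was 986 to 1462 CPM in Cis-sEV and 6110 to 6797 CPM in Ctrl-sEV. The direction of mmu-miR-122-5p was the opposite of that of the miR-192 and miR-194 means, and its part in their levels was not tested. Of the list of gut, kidney and endocrine epithelium, 2 of 3 had a row, with a sum of 193 to 319 CPM in Cis-sEV and 166 to 345 CPM in Ctrl-sEV. mmu-miR-375-3p, of endocrine cells, made up nearly all of it and had a log2 fold change of -0.46 (SE 0.60, adjusted p = 0.677 from edgeR), and mmu-miR-802-5p had 1 read in all.

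Of the erythrocyte list 4 of 5 had a row, with a sum of 1158 to 1337 CPM in Cis-sEV and 1639 to 3604 CPM in Ctrl-sEV. mmu-miR-451a and mmu-miR-486a-5p were called lower (log2 fold changes -1.15 and -3.47). The call of mmu-miR-451a was lost in 11 of 17 alternatives, at adjusted p of 0.0503 to 0.158, among them total reads, DESeq2, limma-voom and each library left out other than Ctrl-sEV replicate 3. That of mmu-miR-486a-5p was lost under limma-voom and the replicate block. mmu-miR-486b-5p was at -3.31 and not called, and mmu-miR-144-3p had 2 reads, both in Cis-sEV. Of the leukocyte list 3 of 5 had a row, with a sum of 430 to 674 CPM in Cis-sEV and 399 to 561 CPM in Ctrl-sEV. mmu-miR-150-5p, mmu-miR-155-5p and mmu-miR-223-3p belong to it, and of the first 2, which were tested, 0 were called, with log2 fold changes of -0.86 and 1.88 (adjusted p = 0.254 and 0.618 from edgeR). The hair cell miRNAs mmu-miR-183-5p, mmu-miR-96-5p and mmu-miR-182-5p, which mark the sensory cells of the labelled tissue, were all read in every library, at a sum of 59073 to 81525 CPM in Cis-sEV and 54984 to 55757 CPM in Ctrl-sEV. mmu-miR-96-5p was called higher (log2 fold change 2.08), a call lost in 5 of 17 alternatives, DESeq2, both limma-voom fits and those without Ctrl-sEV replicate 1 or 2 (adjusted p 0.0554 to 0.367). mmu-miR-183-5p, at -0.49, was not called, since it passed the adjusted p (0.0419 from edgeR) but not the fold limit. mmu-miR-182-5p was at 0.18 and not called (adjusted p = 0.782 from edgeR). The part of these lists in the miR-192, miR-194 and miR-215 values was not tested.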

How the data were processed

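The deposited values are counts of reads on each mature miRNA in 3 Cis-sEV and 3 Ctrl-sEV libraries, without normalization. The authors selected RNA of 18 to 30 nt by gel, used DNBSEQ sequencing, mapped the reads to GRCm38.p6 by Bowtie2 and annotated them with AASRA and cmsearch, giving miRBase precedence; versions are not given in the sources used here. Columns of the authors' group averages were not used.

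The counts were fitted over the whole table with edgeR 4.0.16 in R 4.3.3 (glmQLFit and glmQLFTest, TMM, filterByExpr with a minimum of 10 reads in a library and 15 in all), and p was adjusted by Benjamini-Hochberg. The standard error is the log2 fold change over the root of F. DESeq2 1.42.0, limma 3.58.1 (limma-voom), other scalings, no filter, summed arms, a replicate block and each library left out were alternatives; limma-voom with group weights and robust edgeR were chosen after seeing the data. The fits were tested on simulated data with large changes and less spread between replicates than in these libraries. That test therefore does not show how the fits behave at the spread seen here. Ratios and intervals used Python 3.11.15 and scipy 1.17.1. Libraries of a group differed by more than sampling noise (chi-square per degree of freedom 66.3 to 115). Replicates are separate samples per the labels, and p-values measure the spread between these pools. Depth was 528952 to 1794175 miRNA reads, and copies made by PCR are counted as reads.

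The miRNAs described, the lists and the tests were chosen with earlier results of these data known. miRNAs were named by rule: the miR-192, miR-194 and miR-215 rows; p53-linked arms that were called or reached 100 scaled CPM; tissue markers with a read; and the 3 miRNAs most like each tested arm.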

Additional observations from a re-analysis of the deposited data

How the results depend on the processing

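The log2 fold change of mmu-miR-192-5p stayed positive and uncalled under all 17 alternatives, from 0.54 without Ctrl-sEV replicate 3 to 1.88 without Ctrl-sEV replicate 2 (adjusted p 0.147 to 0.813). That of mmu-miR-194-5p was positive under the same 17, from 0.27 to 4.29 with 1 library left out, and was called in 1 of them, without Ctrl-sEV replicate 3, so that the number of called members was 0 to 1 with 1 library left out and 0 under the others. The p53-linked arms called numbered 1 to 5 with 1 library left out, of 9 or 12 tested, beside 11.7 to 32.7% of all miRNAs called higher, and 3 with total miRNA reads, beside 27.5%. With 1 library left out, the difference in log2 ratio between Cis-sEV and Ctrl-sEV ran from -3.71 to 0.96 for mmu-miR-192-5p to mmu-miR-194-5p, -1.89 to 0.16 for mmu-miR-192-5p to mmu-miR-215-5p (0.13 with 1 added in place of 0.5), -0.80 to 1.82 for mmu-miR-194-5p to mmu-miR-215-5p, -2.05 to 0.18 for mmu-miR-192-5p to mmu-miR-34a-5p and -0.78 to 1.65 for mmu-miR-194-5p to mmu-miR-34a-5p. The cause of these reversals was not tested. The difference in summed share stayed positive, from 0.0295 to 0.0377 percentage points with 1 library left out and 0.0426 without the 10 most abundant miRNAs.

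The replicate numbers are not stated to pair the libraries, and same-numbered libraries did not deviate together (r of -0.18 to -0.01 over the 3 pairs). With the replicate number as a block the log2 fold changes were 1.49 for mmu-miR-192-5p and 2.92 for mmu-miR-194-5p, neither called, 1 p53-linked arm was called beside 3.68% of all miRNAs, their median was 2.42 beside 1.55 for all, and the calls over all miRNAs fell from 83 higher and 23 lower to 13 and 11. limma-voom called 30 higher and 13 lower, edgeR without the filter 62 and 14, and edgeR without 1 library between 40 and 144 higher. The depth of the controls limits what can be said of mmu-miR-215-5p and mmu-miR-194-2-3p.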
